A study of Homo sapiens with 24 samples.

Results

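The transcription factor p53 is held at a low level by the ubiquitin ligase MDM2 and accumulates after DNA damage or other stress, when it switches on genes for cell cycle arrest, apoptosis, DNA repair and metabolic adjustment. Some of those genes, MDM2 among them, feed back and lower p53 again. The report covers 33 such target genes, chosen by symbol from a list of known p53 targets. All 33 were found among the 25559 genes of the count files, and 31 of them had enough reads for the tests across lines.

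RNA-seq libraries came from 3 human T-cell lines: HH, from cutaneous T-cell lymphoma, PF382, from T-cell acute lymphoblastic leukemia, and TLOm1, from adult T-cell leukemia. Cells were untreated or exposed to azacitidine (AZA), a ribonucleoside analog of cytidine, or to decitabine, its deoxyribonucleoside counterpart. Both inhibit DNA methylation. Drug was present for 96 h and was added anew every 24 h, at 50, 125 and 250 nM AZA in HH, 125, 250 and 500 nM AZA in PF382 and TLOm1, and 5, 12.5 and 25 nM decitabine in every line. The 24 libraries form an AZA set and a decitabine set, told apart by the prefix of their titles. Each set has 1 untreated library of each line, and each line, drug and dose has 1 library. Treated libraries of a line are different doses and not replicate cultures, so the p-values describe the scatter of these libraries alone. That scatter can hold differences between doses and lines as well as technical ones, so the p-values may be too small or too large.

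Values are read counts per gene, given here as CPM, the reads of a gene scaled to a library total of 1000000. Totals ranged from 13892514 to 32496676, and in the library with the fewest reads a gene without reads could still stand at 0.216 CPM (3 counts), a limit for counting error only. As a check of the labels, at least 1 CPM in every library was reached by 10 of 10 T-cell markers in PF382, 8 of 10 in HH, where LCK stayed under 1 CPM, and 5 of 10 in TLOm1, where CD3D, CD3G and CD7 did. Markers of B, myeloid, epithelial, stromal, endothelial and red cells, 12 genes in all, summed to 2.59 to 6.03 CPM in HH. In PF382 they summed to 23.7 to 24.9 CPM untreated, 41.3 to 58.3 CPM with AZA and 35.8 to 69.8 CPM with decitabine, and in TLOm1 to 30.1 to 46.3, 37.8 to 42.8 and 66.8 to 76.2 CPM. In the decitabine set of TLOm1 the endothelial marker PECAM1 alone read 44.1 CPM untreated and 47.5, 68.1 and 71.3 CPM at rising dose. TLOm1 at 5 nM decitabine also had 213 reads of COL1A1 and 257 of COL1A2, both stromal markers. COL1A2 had 0 reads in untreated TLOm1 of that set and at 12.5 and 25 nM. CD14, LYZ and HBB were under 1 CPM in every library. The part of these markers in the results below was not tested.

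The promoters of 4 members are shown because these genes stood on one side of the untreated library or followed the dose under both drugs, and because the enzymes that both drugs inhibit methylate cytosine in CpG. PHLDA3 also stood on one side under both drugs, but no promoter was listed for it. Sequences are from RefSeq on GRCh38.p14, 250 bases up to the base before the first listed start site, 5′ to 3′ on the gene's strand, with CpG in capitals. TP53I3 lies on the minus strand at chr2:24084835-24085084, PLK2 on the minus strand at chr5:58460087-58460336, PMAIP1 on the plus strand at chr18:59899746-59899995 and CYFIP2 on the plus strand at chr5:157265873-157266122.
TP53I3: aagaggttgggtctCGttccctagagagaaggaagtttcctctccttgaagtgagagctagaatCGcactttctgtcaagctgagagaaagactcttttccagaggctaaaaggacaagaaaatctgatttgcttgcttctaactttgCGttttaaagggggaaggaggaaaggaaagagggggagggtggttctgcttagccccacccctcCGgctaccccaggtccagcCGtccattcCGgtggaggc
PLK2: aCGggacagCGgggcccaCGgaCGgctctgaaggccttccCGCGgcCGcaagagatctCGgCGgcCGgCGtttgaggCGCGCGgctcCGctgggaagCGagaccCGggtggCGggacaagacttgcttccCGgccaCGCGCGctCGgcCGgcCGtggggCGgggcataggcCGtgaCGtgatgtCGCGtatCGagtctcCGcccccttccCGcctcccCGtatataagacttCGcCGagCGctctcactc
PMAIP1: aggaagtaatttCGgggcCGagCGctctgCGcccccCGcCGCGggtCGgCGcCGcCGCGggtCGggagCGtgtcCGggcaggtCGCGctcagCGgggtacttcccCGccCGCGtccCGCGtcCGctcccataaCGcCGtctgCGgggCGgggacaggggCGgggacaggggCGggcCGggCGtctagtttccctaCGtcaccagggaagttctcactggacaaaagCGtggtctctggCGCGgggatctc
CYFIP2: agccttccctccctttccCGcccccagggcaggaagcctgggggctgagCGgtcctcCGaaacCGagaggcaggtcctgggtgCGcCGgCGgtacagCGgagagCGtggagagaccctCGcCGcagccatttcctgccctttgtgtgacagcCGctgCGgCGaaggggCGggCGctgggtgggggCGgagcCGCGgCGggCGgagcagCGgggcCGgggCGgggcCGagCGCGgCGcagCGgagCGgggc

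TP53I3 had 6 CpG in this window, CYFIP2 30, PMAIP1 36 and PLK2 37. Across the 26 members with a promoter in the table the count ran from 4 to 38 with a median of 24, against a median of 11 over 27303 promoters. Those promoters were of all genes and were not limited to genes with enough reads here, so the difference is not particular to p53 targets. The p53 half-site consensus, 10 bases read identically on both strands, was found in 3 of the 26: as gggCTTGccc in FDXR and in AEN, starting 11 and 34 bases before the start site, and as agaCTTGctt in PLK2, starting 132 bases before it, with the central 4 bases in capitals. It occurred in 5.53% of all promoters of the same length. A full site, a pair of half-sites with up to 13 bases between, was in 0 of the 26 members and in 0.0293% of all promoters. Methylation of these windows was not measured in these libraries.

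Before treatment the lines already differed in most members. Levels between the lines passed the test for 30 of the 31 members, beside 82.9% of the 15501 genes tested (edgeR's quasi-likelihood test with Benjamini-Hochberg adjustment, threshold 0.05, here and throughout). The exception was ACER2, an alkaline ceramidase, with an adjusted p of 0.141. TLOm1 had the highest mean of its untreated libraries for 16 members, PF382 for 8 and HH for 7. HH had the lowest for 15, PF382 for 11 and TLOm1 for 5. The 2 untreated libraries of a line lay above all those of the other lines for 13 members in TLOm1, 6 in PF382 and 4 in HH, beside 20.0%, 33.6% and 17.7% of genes tested. They lay below them for 4 members in TLOm1, 11 in PF382 and 14 in HH, beside 20.5%, 20.4% and 22.4%.

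FAS, the death receptor, had the smallest p-value of that comparison. It stood at 22.9 and 39.7 CPM in untreated HH, at 9.47 and 13.2 CPM in PF382, and at 128.9 and 177 CPM in TLOm1 (AZA set first), with no overlap between lines. On the log2 scale TLOm1 was 2.29 ± 0.13 (SE) above HH (adjusted p 1.24e-07) and 3.92 ± 0.15 above PF382 (adjusted p 2.35e-09). CDKN1A, which encodes the kinase inhibitor p21, ran in the same order, at 161 and 191 CPM in TLOm1, 9.62 and 21.7 CPM in HH, and 2.23 and 1.30 CPM in PF382. TLOm1 was 6.70 ± 0.46 above PF382 on the log2 scale (adjusted p 0.000170). AEN, an apoptosis-enhancing nuclease, was instead lowest in HH, at 8.27 and 8.45 CPM, and TLOm1 was 3.88 ± 0.15 above HH (adjusted p 5.37e-09). ZMAT3, an RNA-binding zinc finger protein, was highest in HH, at 82.2 and 123 CPM, and the log2 difference of TLOm1 from it was -2.19 ± 0.13 (adjusted p 1.08e-07).

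**Figure D1:**
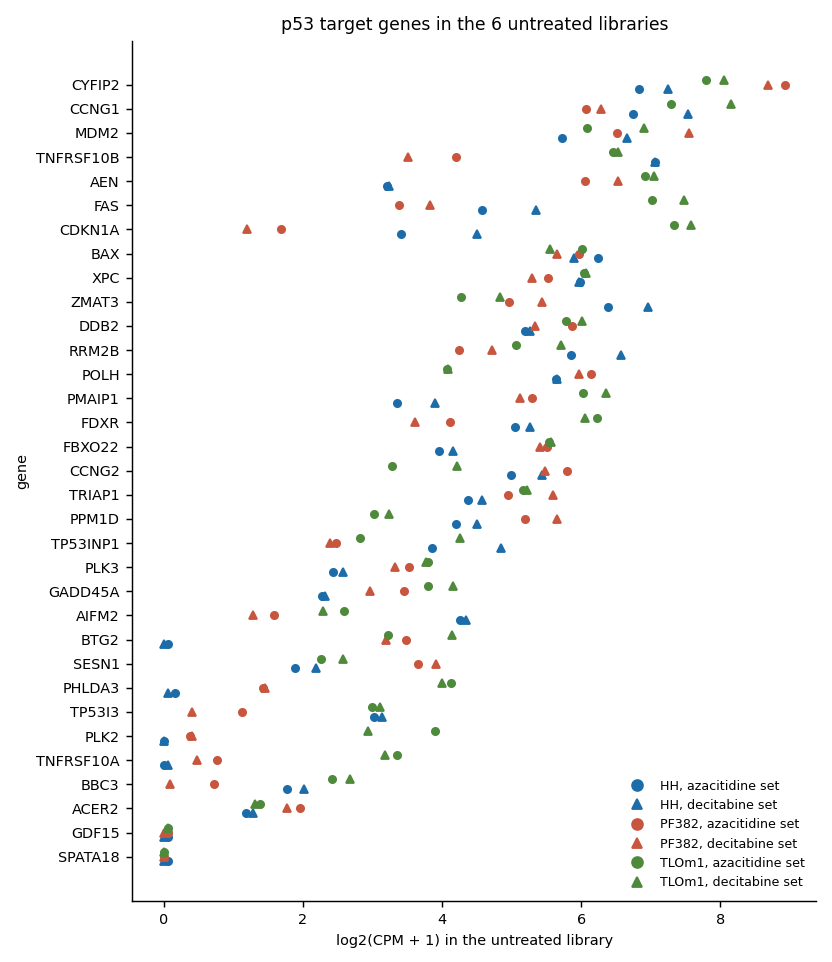
Level of each of the 33 members, as log2(CPM + 1) on the horizontal axis, in the 6 untreated libraries, 1 symbol per library, coloured by line and shaped by set. CDKN1A is high in TLOm1 and low in PF382, and SPATA18 and GDF15 lie near 0 in every library.

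The untreated libraries also differed between the sets, for 6 of the 31 members beside 10.6% of all genes. MDM2 was higher in the decitabine set by 0.92 ± 0.09 on the log2 scale (adjusted p 0.00189), RRM2B by 0.61 ± 0.11 (0.0118), CCNG1 by 0.61 ± 0.14 (0.0274), FAS by 0.56 ± 0.11 (0.0154) and ZMAT3 by 0.52 ± 0.10 (0.0145). BAX, the pore-forming effector of mitochondrial apoptosis, was lower by 0.41 ± 0.10 (0.0263). In the main tests each drug was read only against the untreated libraries of its own set. Fits with both untreated libraries of a line as controls were run as alternatives.

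Few members passed the test of treated against untreated libraries over the 3 lines. With AZA it was 1 of 31, lower, beside 1.17% of 16107 genes. With decitabine it was 0 of 31, beside 0.0% of 15892 genes. At an unadjusted p under 0.05, 8 members differed with AZA, 5 higher and 3 lower, beside 21.0% of all genes, and 4 with decitabine, 2 in each direction, beside 15.7%. With DESeq2 5 members passed with AZA, beside 7.07% of genes, and 1 with decitabine, beside 3.01%. The median log2 fold change of the members was 0.098 with AZA and 0.066 with decitabine, against 0.014 and 0.024 over all genes tested.

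Some members stood on one side of the untreated library throughout. Under AZA 6 members stood above the untreated library of their line in all 9 treated libraries, beside 8.24% of all genes, and 3 stood below it in all 9, beside 5.04%. Under decitabine these counts were 5, beside 6.55%, and 1, beside 3.55%. TP53I3, PLK2 and PHLDA3 were above under both drugs, and CYFIP2 was below under both. The 9 comparisons of a drug share 3 untreated libraries.

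**Figure D2:**
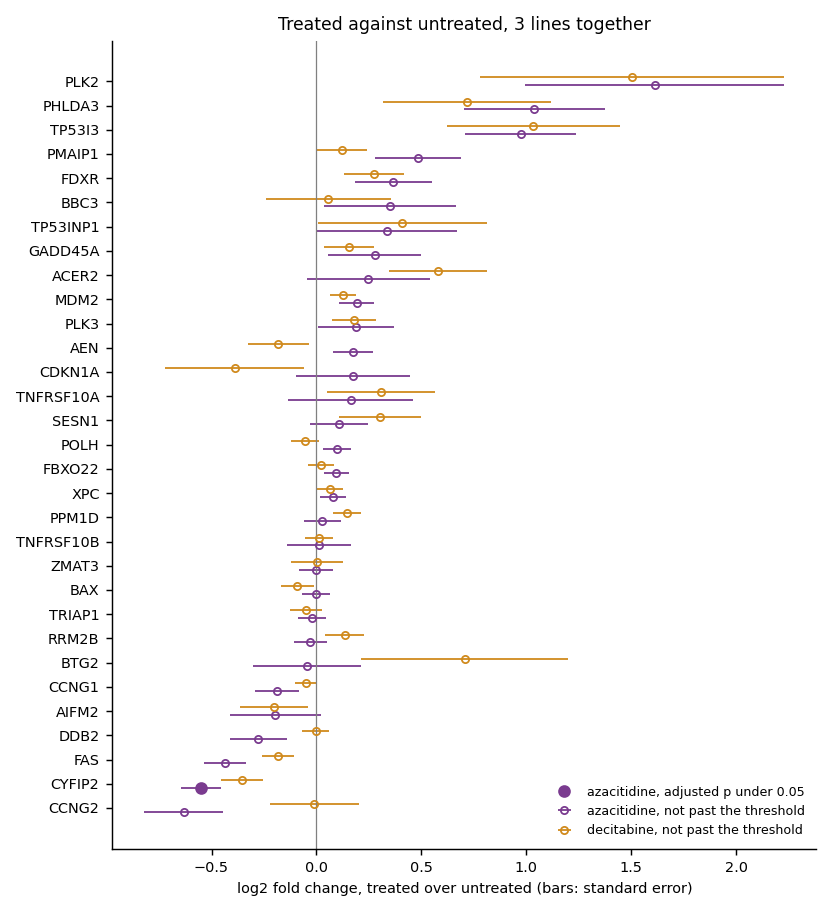
Fitted log2 fold change of 31 members, treated over untreated across 3 lines, on the horizontal axis, with bars for the standard error, for AZA and for decitabine. CYFIP2 under AZA is the only filled point, at -0.55, the one value past the threshold.

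Among the 10 members for cell cycle arrest and feedback, 7 had a positive fold change under each drug and 0 passed across lines in either. Their log2 fold changes ran from -0.63 to 1.61 with AZA and from -0.39 to 1.51 with decitabine. In the order untreated, then rising dose, CDKN1A stood in the AZA set at 9.62, 9.46, 7.54 and 11.4 CPM in HH, 2.23, 3.13, 3.52 and 8.62 CPM in PF382 and 161, 149, 139 and 157 CPM in TLOm1. Its decitabine set read 21.7, 8.34, 9.27 and 12.3 CPM in HH, 1.3, 1.21, 3.41 and 6.26 CPM in PF382 and 191, 173, 179 and 158 CPM in TLOm1. In PF382 the highest dose of each drug gave the highest value, while in HH under decitabine all 3 doses were below the untreated library, and the lines went different ways. The fold change across lines was 0.17 ± 0.27 with AZA (adjusted p 0.752).

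MDM2, the ligase that degrades p53, read in the AZA set 51.7, 52.1, 59.6 and 59.4 CPM in HH, 90.5, 101, 94.7 and 96 CPM in PF382 and 66.6, 78.4, 80.8 and 98.9 CPM in TLOm1. In the decitabine set it read 99.8, 116, 124 and 133 CPM in HH, 187, 174, 185 and 185 CPM in PF382 and 119, 135, 129 and 139.7 CPM in TLOm1. Every AZA dose was above its untreated library, by little in HH at 50 nM and most in TLOm1 at 500 nM. The log2 fold change was 0.19 ± 0.08 with AZA (adjusted p 0.223) and 0.13 ± 0.06 with decitabine (adjusted p 0.351).

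PLK2, a polo-like kinase, was nearly silent in HH and PF382 and clearly present in TLOm1. The AZA set gave 0, 0.495, 0.369 and 2.7 CPM in HH, 0.305, 1.1, 1.02 and 2.19 CPM in PF382 and 13.9, 25.7, 31.9 and 23.2 CPM in TLOm1. The decitabine set gave 0, 0.104, 0.112 and 1.39 CPM in HH, 0.326, 0.861, 1.81 and 4.54 CPM in PF382 and 6.66, 7.88, 14.1 and 13.6 CPM in TLOm1. Treated libraries were above the untreated one in all 18 cases, though untreated HH had 0 counts in both sets. Against the floor of 3 counts in that library, HH was at least 4.01-fold, 2.99-fold and 21.9-fold higher at 50, 125 and 250 nM AZA, and at least 9.34-fold higher at 25 nM decitabine. The lower decitabine doses in HH had too few counts for a fold. In PF382 PLK2 reached 7.18-fold at 500 nM AZA and 13.9-fold at 25 nM decitabine, from 7 and 5 untreated reads. The log2 fold change across lines was 1.61 ± 0.62 with AZA (adjusted p 0.174) and 1.51 ± 0.72 with decitabine (adjusted p 0.339).

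BTG2, an antiproliferative gene, was at or near 0 in HH. In the AZA set it read 0.0411, 0.124, 0.0308 and 0.0806 CPM in HH, 10.2, 9.32, 9.98 and 15.8 CPM in PF382 and 8.37, 4.85, 6.44 and 9.08 CPM in TLOm1. In the decitabine set it read 0, 0, 0.0559 and 0.199 CPM in HH, 8.14, 14.2, 28.2 and 50.1 CPM in PF382 and 16.7, 13.4, 15.6 and 16.5 CPM in TLOm1. PF382 was higher at every decitabine dose than at the one before, up to 6.15-fold over untreated, whereas TLOm1 under AZA was lowest at 125 nM and came back at 500 nM. Its slope per doubling of the dose passed the test with AZA, at 0.38 ± 0.09 (adjusted p 0.0266), a comparison among treated libraries that leaves the untreated ones out, and the decitabine slope was 0.45 ± 0.12 (adjusted p 0.0926). The AZA call was lost when any of the 6 libraries of PF382 or TLOm1 was left out (adjusted p 0.0551 to 0.125) and with DESeq2.

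CCNG1, cyclin G1, and CCNG2, cyclin G2, were on the lower side under AZA. CCNG1 read 106, 100.5, 103 and 85.2 CPM in HH, 66.3, 53.5, 50.0 and 44.9 CPM in PF382 and 156, 182, 149 and 151 CPM in TLOm1 in the AZA set. It read 185, 192, 200.2 and 188 CPM in HH, 77.1, 77.5, 77 and 79.5 CPM in PF382 and 283, 262, 234 and 263 CPM in TLOm1 in the decitabine set. PF382 was lower at each AZA dose than at the one before, and TLOm1 at 125 nM was above its untreated library. The AZA slope passed at -0.13 ± 0.03 (adjusted p 0.0389) and was lost on leaving out any of 6 libraries: HH at 250 nM, PF382 at 125, 250 and 500 nM, and TLOm1 at 125 and 250 nM (adjusted p 0.0548 to 0.147).

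CCNG2 read 30.7, 20.3, 18.2 and 10.9 CPM in HH, 54.7, 43.6, 42.6 and 42.6 CPM in PF382 and 8.74, 7.89, 4.6 and 4.84 CPM in TLOm1 in the AZA set. It read 42.3, 36.2, 37.7 and 39.4 CPM in HH, 43.5, 53.7, 74.3 and 98.1 CPM in PF382 and 17.6, 12.5, 10.4 and 13.7 CPM in TLOm1 in the decitabine set. All 9 AZA libraries were below their untreated library, while PF382 under decitabine was above it at each dose. The log2 fold change was -0.63 ± 0.19 with AZA (adjusted p 0.110) and the AZA slope was -0.25 ± 0.08 (adjusted p 0.0776), neither past the threshold. FBXO22, a ubiquitin ligase subunit, was above untreated in all 9 AZA libraries, with a log2 fold change of 0.09, and the kinase gene PLK3 in all 9 decitabine libraries, with a log2 fold change of 0.18. Both were chosen after their values were seen. PPM1D, a phosphatase that dampens the p53 response, and GADD45A, a damage-response gene, passed no drug test.

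The 11 apoptosis members held the single call across lines, with log2 fold changes from -0.55 to 1.04 with AZA and from -0.35 to 0.72 with decitabine. CYFIP2, a p53-induced partner of the FMR1 protein, read 112, 90.4, 90.8 and 75.1 CPM in HH, 487, 352, 317 and 311 CPM in PF382 and 221, 164, 140.0 and 121 CPM in TLOm1 in the AZA set. It read 151, 147, 133 and 129 CPM in HH, 412, 362, 297 and 257 CPM in PF382 and 265, 217, 190.2 and 187 CPM in TLOm1 in the decitabine set. Every treated library was below the untreated library of its line, 18 of 18, and in PF382 and TLOm1 the values went down at each step. The log2 fold change was -0.55 ± 0.09 with AZA (adjusted p 0.0271) and -0.35 ± 0.10 with decitabine (adjusted p 0.155). The slopes per doubling passed for both drugs, at -0.15 ± 0.03 with AZA (adjusted p 0.0219) and -0.14 ± 0.03 with decitabine (adjusted p 0.0170). The AZA call was lost without HH at 125 nM (0.0561), PF382 at 250 nM (0.0690) or TLOm1 at 250 nM (0.0720), without any 1 line (0.102 to 0.137), and when the doses of a line were summed (0.144). The AZA slope was lost without HH at 250 nM (0.0587) or TLOm1 at 125 nM (0.0857), and the decitabine slope without PF382 at 5 nM (0.0791).

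PMAIP1, which encodes the BH3-only protein NOXA, was the member whose slope passed upward under both drugs. It read 9.25, 11.8, 10.8 and 13.8 CPM in HH, 38.3, 39.2, 39.9 and 57 CPM in PF382 and 63.8, 85.1, 99.6 and 163 CPM in TLOm1 in the AZA set. It read 13.9, 11.6, 13.9 and 15.9 CPM in HH, 33.8, 32.1, 39.2 and 40.5 CPM in PF382 and 80.7, 80.0, 95.6 and 116 CPM in TLOm1 in the decitabine set. The top dose gave the highest value in every line under both drugs. The slope per doubling was 0.28 ± 0.07 with AZA (adjusted p 0.0296) and 0.18 ± 0.03 with decitabine (adjusted p 0.0107), and the log2 fold change over untreated with AZA was 0.48 ± 0.20 (adjusted p 0.210). The AZA slope missed the threshold without HH at 250 nM, PF382 at 500 nM, or TLOm1 at 125 or 500 nM (adjusted p 0.0534 to 0.122). The decitabine slope missed it only without the whole line HH (0.0904) or TLOm1 (0.139) among the libraries and lines left out.

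FAS, which triggers apoptosis when bound by its ligand, read in the AZA set 22.9, 18.2, 18.3 and 16.9 CPM in HH, 9.47, 8.46, 8.28 and 7.06 CPM in PF382 and 129, 98.8, 80.0 and 73.7 CPM in TLOm1. In the decitabine set it read 39.7, 41.5, 38.7 and 36.7 CPM in HH, 13.2, 12.6, 11.6 and 14.2 CPM in PF382 and 177, 149, 132 and 133 CPM in TLOm1. All 9 AZA libraries were below their untreated library, with the deepest drop in TLOm1, where FAS was highest. Across lines the log2 fold change was -0.44 ± 0.10 with AZA (adjusted p 0.0646) and -0.18 ± 0.08 with decitabine (adjusted p 0.276). In TLOm1 alone the AZA difference passed at -0.60 ± 0.14 (adjusted p 0.0491). It was lost without TLOm1 at 250 nM (0.137) or 500 nM (0.106) and without the filter on low counts (0.0590).

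AEN read 8.27, 10.3, 11.1 and 13.6 CPM in HH, 65.3, 77.1, 75.3 and 73.9 CPM in PF382 and 119.6, 116, 116 and 112 CPM in TLOm1 in the AZA set. It read 8.45, 9.75, 8.71 and 11.2 CPM in HH, 91.2, 78.9, 59.3 and 51.2 CPM in PF382 and 132, 126, 133 and 125 CPM in TLOm1 in the decitabine set. HH was above untreated at every dose of both drugs, and PF382 was above it with AZA and below it with decitabine. Neither drug's test across lines passed (AZA adjusted p 0.314).

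PHLDA3, an inhibitor of AKT signaling chosen after its values were seen, was above untreated in all 18 treated libraries. It read 0.123, 0.742, 0.739 and 1.94 CPM in HH, 1.7, 2.19, 2.8 and 3.51 CPM in PF382 and 16.5, 26.1, 29.5 and 30.2 CPM in TLOm1 in the AZA set. It read 0.0497, 0.156, 0.335 and 1.29 CPM in HH, 1.76, 1.78, 2.14 and 3.17 CPM in PF382 and 14.9, 19.5, 28.7 and 20.1 CPM in TLOm1 in the decitabine set. The log2 fold change was 1.04 ± 0.33 with AZA (adjusted p 0.129) and 0.72 ± 0.40 with decitabine (adjusted p 0.395). TNFRSF10A, a TRAIL receptor at 9.18 and 8.10 CPM in untreated TLOm1 and under 1 CPM in the other lines, was above untreated in all 9 decitabine libraries, on 1 or 2 reads a library in HH. For the other apoptosis members (TNFRSF10B, BAX, BBC3, TRIAP1 and TP53INP1) no test of either drug passed.

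**Figure D3:**
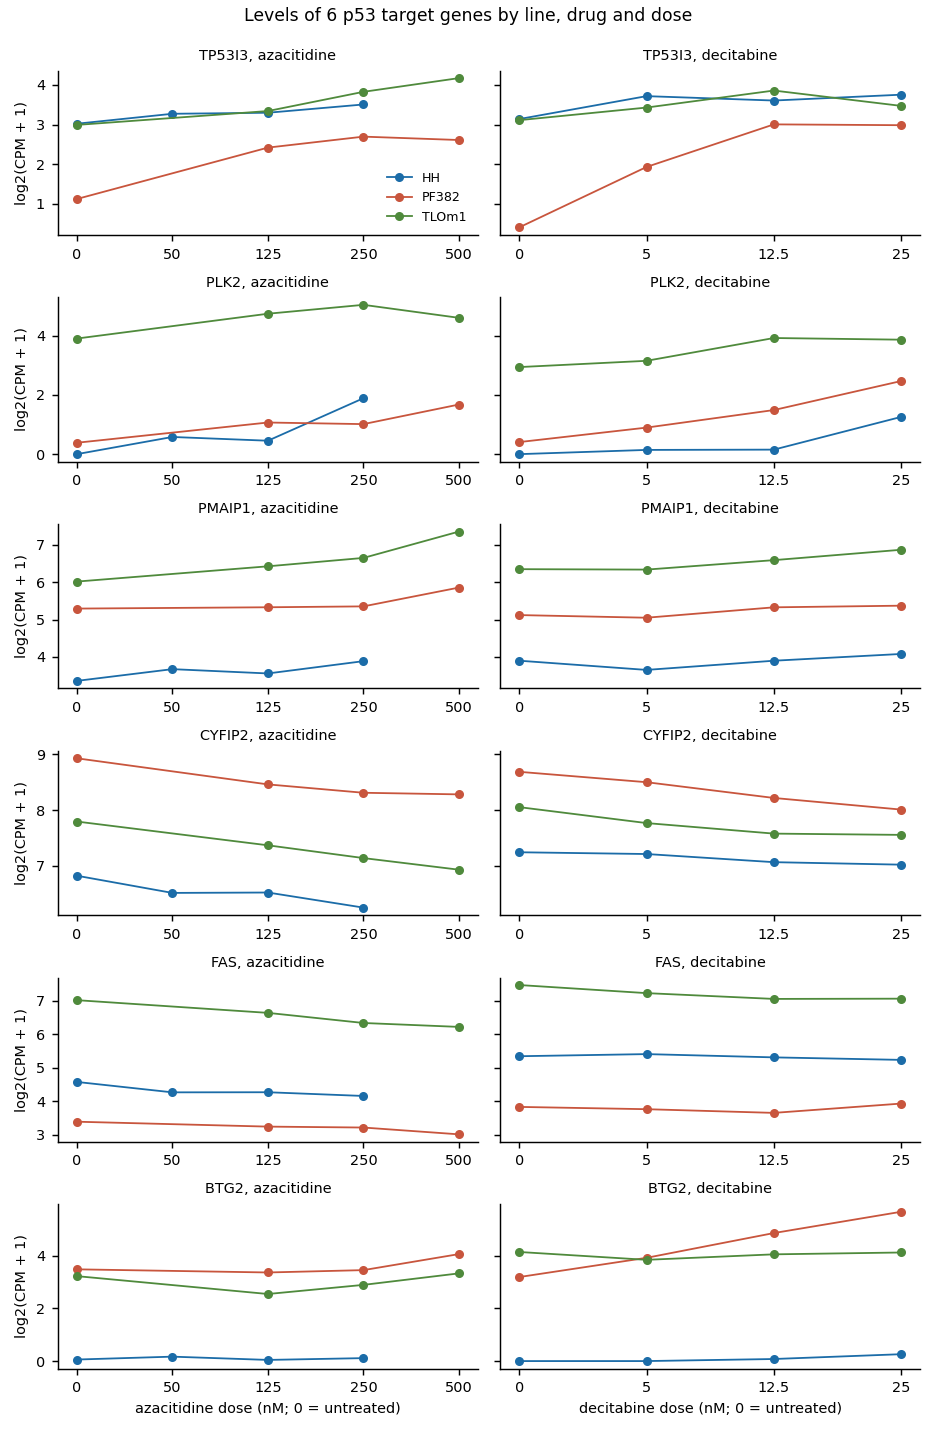
Levels of 6 members as log2(CPM + 1) on the vertical axis against drug dose in nM (equally spaced, 0 for untreated), AZA on the left and decitabine on the right, 1 line of points per cell line and 1 library per point. TP53I3 and PLK2 lie above their untreated library in every treated library, and CYFIP2 lies below it in every one.

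The 4 members for DNA repair and nucleotide supply had 0 calls across lines and 0 in either slope, with log2 fold changes from -0.28 to 0.10 with AZA and from -0.05 to 0.13 with decitabine. DDB2, a damage sensor of nucleotide excision repair, read 35.4, 35.8, 39.6 and 41.1 CPM in HH, 57.1, 37.2, 37.4 and 29.6 CPM in PF382 and 53.8, 49.6, 45.2 and 51 CPM in TLOm1 in the AZA set. It read 37.3, 41.2, 40.2 and 43.6 CPM in HH, 39.4, 39.2, 36.7 and 35.9 CPM in PF382 and 63.7, 66.2, 59.3 and 61.8 CPM in TLOm1 in the decitabine set. PF382 under AZA lay at 29.6 to 37.4 CPM, below the 57.1 CPM of its untreated library, a log2 difference of -0.75 ± 0.13 that passed (adjusted p 0.00891). HH lay above untreated at every dose of both drugs. The untreated PF382 library of the decitabine set read 39.4 CPM, and with both untreated libraries as controls the log2 fold change was -0.49 (adjusted p 0.0488).

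RRM2B, the p53-inducible subunit of ribonucleotide reductase, read 57, 55.3, 52.4 and 46.8 CPM in HH, 17.9, 17, 16.9 and 17.8 CPM in PF382 and 32.6, 38.8, 33.8 and 36.1 CPM in TLOm1 in the AZA set. It read 94.1, 90.5, 101 and 90.1 CPM in HH, 25.3, 34.8, 37.8 and 40.0 CPM in PF382 and 51.4, 50.1, 47.9 and 54.5 CPM in TLOm1 in the decitabine set. PF382 under decitabine was above untreated at each dose, by 0.53 ± 0.12 on the log2 scale (adjusted p 0.0738), and the other lines had values on both sides of theirs. XPC, which recognises distorted DNA, and POLH, a translesion polymerase, passed no drug test.

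The 8 members for metabolism and stress included TP53I3, and the 6 with enough reads had log2 fold changes from -0.20 to 0.97 with AZA and from -0.20 to 1.03 with decitabine. This quinone oxidoreductase gene read 7.12, 8.65, 8.83 and 10.4 CPM in HH, 1.18, 4.35, 5.48 and 5.11 CPM in PF382 and 6.95, 9.13, 13.2 and 17 CPM in TLOm1 in the AZA set. It read 7.8, 12.1, 11.2 and 12.5 CPM in HH, 0.326, 2.81, 7.02 and 6.91 CPM in PF382 and 7.63, 9.76, 13.5 and 10.1 CPM in TLOm1 in the decitabine set. All 18 treated libraries were above untreated, and PF382, lowest before treatment, came to between 2.81 and 7.02 CPM. Its decitabine folds in PF382 were 8.63, 21.6 and 21.2 at 5, 12.5 and 25 nM, from 5 untreated reads, and its AZA folds were 3.69, 4.65 and 4.33 at 125, 250 and 500 nM, from 27 reads. In PF382 the decitabine difference passed at 4.02 ± 0.64 on the log2 scale (adjusted p 0.0160), and the AZA difference was 2.03 ± 0.47 (adjusted p 0.0505). Untreated PF382 read 0.326 CPM in the decitabine set and 1.18 CPM in the AZA set. The decitabine folds and difference thus rest on the lower of these, a single library with 5 reads. Across lines the log2 fold change was 0.97 ± 0.26 with AZA (adjusted p 0.0919) and 1.03 ± 0.41 with decitabine (adjusted p 0.270).

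FDXR, the ferredoxin reductase of mitochondria, read 32.1, 43.7, 58.8 and 75.9 CPM in HH, 16.3, 15.4, 13.9 and 14.9 CPM in PF382 and 73.7, 88.5, 103 and 101 CPM in TLOm1 in the AZA set. It read 37.5, 44.9, 47.2 and 66.1 CPM in HH, 11.3, 11.1, 10.9 and 11 CPM in PF382 and 65.8, 69.8, 101 and 77.5 CPM in TLOm1 in the decitabine set. HH was higher at each dose than at the one before, up to 75.9 CPM with AZA, while PF382 was below untreated at each dose of both drugs. ACER2 read 1.27, 1.73, 3.42 and 2.74 CPM in HH, 2.88, 1.76, 2.63 and 2.91 CPM in PF382 and 1.62, 1.32, 1.8 and 2.21 CPM in TLOm1 in the AZA set and 1.44, 1.62, 2.57 and 3.08 CPM in HH, 2.41, 3.9, 4.68 and 3.89 CPM in PF382 and 1.48, 1.43, 1.98 and 1.99 CPM in TLOm1 in the decitabine set. HH was above untreated at each dose of both drugs, and the decitabine fold change across lines was 0.58 ± 0.23 (adjusted p 0.262).

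ZMAT3 read 82.2, 75, 85.2 and 81.2 CPM in HH, 30.3, 32.7, 31.8 and 33.7 CPM in PF382 and 18.4, 16.8, 15.6 and 20.8 CPM in TLOm1 in the AZA set and 123, 134, 154 and 147 CPM in HH, 42.5, 48.4, 51.9 and 53.8 CPM in PF382 and 27.4, 24.7, 17.1 and 19.1 CPM in TLOm1 in the decitabine set. Under decitabine HH and PF382 were above untreated and TLOm1 below it at every dose. SPATA18, a mitochondrial quality-control gene, reached at most 2 reads in a library. GDF15, a secreted stress cytokine, was at most 0.247 CPM outside TLOm1 at the 2 upper AZA doses (0.533 and 1.15 CPM) and the 2 upper decitabine doses (0.369 and 0.678 CPM). Both genes were too low for the tests across lines. AIFM2 and SESN1 passed no drug test.

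Slopes passed for 4 of 31 members with AZA (CYFIP2, BTG2, PMAIP1 and CCNG1, 2 in each direction), beside 13.7% of 15932 genes, and for 2 of 31 with decitabine (PMAIP1 and CYFIP2), beside 2.97% of 15677 genes. The member count with AZA ranged from 0 to 7 over the leave-one-out fits and was 0 without TLOm1 at 125 nM. Counts over all genes in those fits are not given here, so the range cannot be read as particular to the members. PLK2 had the steepest decitabine slope, 0.69 ± 0.19 (adjusted p 0.105).

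**Figure D4:**
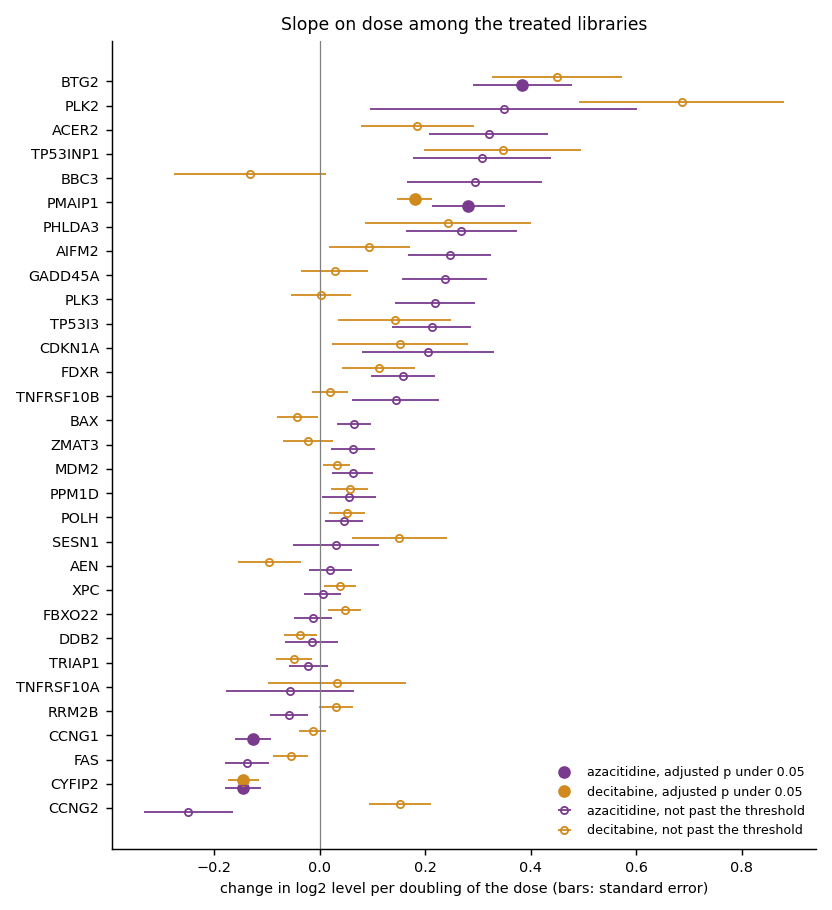
Slope of 31 members on log2 dose among the 9 treated libraries of each drug, as change in log2 level per doubling on the horizontal axis, with bars for the standard error. Filled points passed the threshold: BTG2, PMAIP1, CCNG1 and CYFIP2 for AZA, PMAIP1 and CYFIP2 for decitabine.

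Line by line, calls were rare. With AZA, 0 of 31 members passed in HH, beside 0.0% of 16513 genes, 1 in PF382 (DDB2), beside 0.957%, and 1 in TLOm1 (FAS), beside 1.36%. With decitabine, 0 passed in HH, beside 0.00606%, 1 in PF382 (TP53I3), beside 0.248%, and 0 in TLOm1, beside 0.0%. The difference between the lines was tested itself. It passed for 0 of 31 members with AZA, beside 0.0969% of genes, and for 0 of 31 with decitabine, beside 0.00606%. At an unadjusted p under 0.05 there were 5 members with AZA, beside 11.5% of all genes, and 7 with decitabine, beside 8.87%. The smallest adjusted p-values were 0.106 for DDB2, 0.400 for FDXR and 0.411 for TP53I3 with AZA, and 0.268 for TP53I3, 0.391 for RRM2B and 0.450 for ZMAT3 with decitabine. DESeq2 put DDB2 (0.00460) and TP53I3 (0.00362) past the threshold, and TP53I3 passed without PF382 at 5 nM (0.0133).

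**Figure D5:**
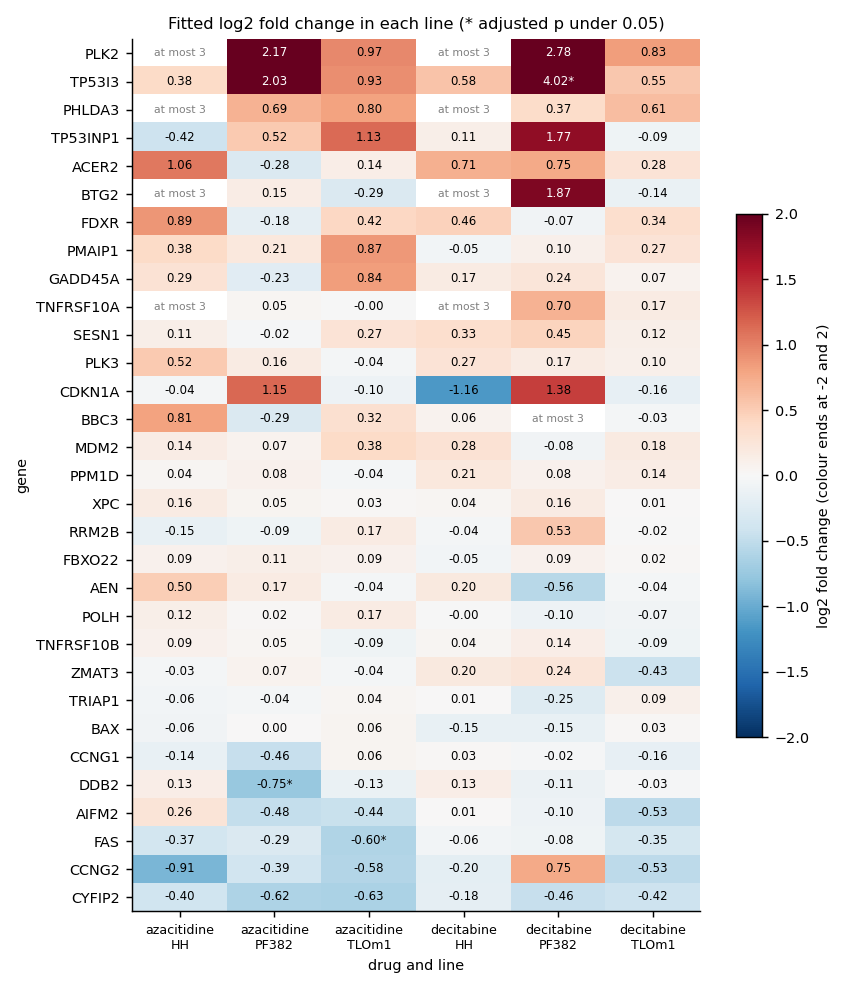
Fitted log2 fold change of 31 members (rows) for each drug and line (columns), in colour and as a number, with a star past the threshold. Cells marked "at most 3" had 3 or fewer untreated reads and are not given a value, and the stars are DDB2 and FAS with AZA and TP53I3 with decitabine.

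Set side by side, with no dose shared by the drugs, 25 of 31 members had the same sign of fold change under AZA and decitabine, 17 higher and 8 lower, which is 80.6% beside 70.8% of 15637 genes tested with both. The drugs have separate untreated libraries. CDKN1A, AEN and BTG2 were among those of opposite sign.

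Further genes of the pathway were taken list by list. Of 16 further p53 targets with enough reads, 1 passed with AZA. It was SFN (14-3-3 sigma), higher by 3.81 ± 0.71 on the log2 scale (adjusted p 0.0326). With decitabine 0 passed, with SFN at 3.07 ± 1.07 (adjusted p 0.222) and TNFRSF10D at 4.07 ± 1.22 (adjusted p 0.173). TNFRSF10D had too few reads in the untreated libraries to be tested between lines, so its fold rests on a low reference. The median log2 fold change of the 16 was 0.20 with AZA and 0.12 with decitabine, against 0.014 and 0.024 over all genes. Slopes of all genes passed upward for 7.55% and downward for 6.17% with AZA, and for 2.18% and 0.791% with decitabine. With dose, 3 of these 16 rose with AZA (SESN2, SUSD6 and TNFRSF10D, adjusted p 0.00917, 0.0123 and 0.0153) and 3 with decitabine (SFN, TNFRSF10D and TIGAR, adjusted p 0.00456, 0.00713 and 0.0441). Of 20 regulators of p53, 0 passed across lines with either drug, and the AZA slope passed upward for CREBBP, HIPK2 and KAT5 and downward for ATR. Of 16 cell cycle genes lowered downstream of p21, 0 passed across lines with either drug. The AZA slope was lower for KIF23, CDK1 and CCNB2 (adjusted p 0.0119, 0.0210 and 0.0345), and 15 of 16 AZA slopes were below 0. With decitabine 0 slopes passed and 13 of 16 were above 0. Against untreated the lines differed in sign. With AZA 15 of 16 log2 fold changes were above 0 in HH, 2 in PF382 and 5 in TLOm1. With decitabine 12 of 16 were above 0 in HH, 4 in PF382 and 14 in TLOm1. Of 10 integrated stress response targets, 0 passed across lines with either drug. Across lines 9 of 10 log2 fold changes were above 0 with AZA (median 0.23) and 10 of 10 below 0 with decitabine (median -0.33). The lines did not share these signs. With AZA 1 of 10 was above 0 in HH, 9 in PF382 and 10 in TLOm1. With decitabine 1 of 10 was above 0 in HH, 6 in PF382 and 0 in TLOm1. The AZA slope was higher for 5 of these 10 targets, with PSAT1, DDIT3 and CHAC1 at the smallest p. The decitabine slope was lower for 2, TRIB3 and PSAT1. In bulk RNA a change in the mix of cells and a change in RNA per cell cannot be told apart.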

How the data were processed

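Gene-level counts were analysed for 24 libraries of HH, PF382 and TLOm1. The deposited counts are whole numbers of reads per gene, not normalized by the authors, for 25559 genes in every file. The tools STAR, limma and DESeq2 and the genome GRCh37.p2 appear in the submitters' processing notes, with no versions. For the counter and the annotation, the sources used here name nothing. According to the labels the RNA was poly-A and also rRNA depleted, which was not settled.

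Samples were grouped by line, drug and dose from the titles. Total counts ranged from 13892514 to 32496676, with a floor of 3 counts. Tests used edgeR 4.0.16 (TMM, robust quasi-likelihood F test, filterByExpr with a minimum count of 10 and a minimum total of 15) in R 4.3.3, with cell line as a block, or line within set for the fit of all 24 libraries, and Benjamini-Hochberg adjustment over all genes tested at 0.05. Standard errors are the absolute fold change divided by the square root of F. Slopes used log2 dose in the 9 treated libraries of a drug. Alternatives were RLE size factors, no filter on low counts, DESeq2 1.42.0, limma 3.58.1 with voom, summed doses, no block, both untreated libraries as controls, dose rank, and leaving out each treated library or line. The scripts were tested on simulated data.

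The members and gene lists were chosen with earlier results of these data known. Values in every library were given for CDKN1A, MDM2, each member past the threshold across lines or in a dose slope, the 4 smallest p-values in each of these tests and the 3 smallest in each test between lines. PHLDA3, TNFRSF10A, FBXO22 and PLK3 fall outside that rule.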

Additional observations from a re-analysis of the deposited data

How the results depend on the processing

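Members past the threshold across lines with AZA numbered 1, and 5 with DESeq2, 2 with voom, 0 with the doses of a line summed, 0 without the cell line block and 8 with both untreated libraries of a line as controls, while all genes called went from 189 to 1115, 443, 1, 0 and 2952. CYFIP2 had an adjusted p of 0.9999 without the block. With decitabine the members numbered 0, and 1 with DESeq2 and 4 with both untreated libraries, and all genes called went from 0 to 469 and 1796, with 13 for voom and 10 for summed doses. With both untreated libraries as controls, FAS under decitabine turned to 0.0659 on the log2 scale. FAS is among the members that differ between the untreated libraries of the sets. Slopes on dose rank from the untreated library gave 8 members with AZA and 4 with decitabine, where all genes called went from 2186 to 3300 and from 465 to 2095, and DESeq2 gave 4 with decitabine, with 691 genes in all. Within lines, both untreated libraries gave 5 members for HH with AZA, 2 for PF382 and 3 for TLOm1, and with decitabine 5 for PF382, while all genes called went from 0, 158, 225 and 41 to 1108, 745, 1771 and 1467. DESeq2 gave 1, 4, 3 and 3 members in these, of 279, 470, 953 and 443 genes in all, and 1 for each drug in the difference between lines, of 414 and 141 genes. Without the filter on low counts 2 members passed with AZA in PF382 and 0 in TLOm1, with counts over all genes not given here.

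Leaving out a library or a line gave 0 to 2 members with AZA across lines, 0 to 7 for the AZA slope and 0 to 4 for the decitabine slope. Within lines it gave 0 to 1 for HH with AZA, 1 to 2 for PF382 and 0 to 5 for TLOm1. With decitabine it gave 1 to 6 for PF382, and 0 to 1 for the difference between lines. Counts over all genes are not given for these fits, so the ranges cannot be read as particular to the members. Leaving out libraries in the fits by line was chosen after seeing the data. Of 406 values of the named genes under alternatives, 339 stayed on their side of the threshold, with the same direction where the test has one. Another 45 lost a call, 21 gained one and 1 turned. The named genes include results that had not passed to begin with, so the 339 are not a count of calls kept. The labels carry no replicate numbers, and treated and untreated libraries of a set were matched by the cell line block.

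With 1 library per condition and 1 untreated library per line and set, any oddity of that library enters every treated comparison of its line. Members with few reads, such as PLK2, PHLDA3 and BTG2 in HH, are limited by depth, and no difference was detectable there below the floor of 3 counts. Doses of the drugs do not match and the sets differ in their untreated levels, so a drug effect and a set effect cannot be told apart beyond each set's own controls.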
